A study of Sus scrofa with 6 samples.

Results

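The cytosolic ribosomal proteins are the structural proteins of the ribosome, and their messenger RNAs were followed here on 6 pig microarrays of ovary and uterine tissue. They were taken as every gene whose single platform symbol begins with RPL or RPS and a digit, or is RPSA, RPLP0, RPLP1 or RPLP2, without the RPS6K kinases. Where a gene had several probe sets (the groups of short oligonucleotides that together report on 1 transcript), the one with the highest mean signal stood for it. The rule found 64 genes on 96 probe sets, out of 6765 genes with a probe set of their own and 23999 probe sets that were not controls. They comprised 34 proteins of the large subunit, 24 of the small subunit, 5 close paralogs (RPL7L1, RPL22L1, RPL26L1, RPL36AL and RPS27L), and RPS19BP1, a SIRT1 regulator that binds RPS19 and carries its symbol without being a ribosomal protein.

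The study compared sows that were not pregnant, in early pregnancy or in late pregnancy, and sampled ovary and a uterine tissue labelled myometrium. Its design text gives 9 pigs, 3 per stage. The 6 arrays hold 1 array for each of the 6 combinations of tissue and stage, and the labels do not say whether an array is 1 animal or a pool. They give no breed, age or day of gestation, and they name no treatment or genetic change in any group. Stage was therefore compared within a tissue as the ratio of 1 array to 1 other array, with no replicate check and no test. Tissue was compared over 3 ovary and 3 myometrium arrays, and the same model gave stage differences shared by both tissues.

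A ribosome joins a small subunit, which reads the messenger RNA, to a large subunit, which forms the peptide bonds. Each subunit takes up most of its proteins in single copies, so that a cell makes them in matched amounts. Their messenger RNAs are among the most abundant of any cell and begin with a 5′ terminal oligopyrimidine (TOP) tract, through which the mTOR pathway controls their translation together with that of elongation factors and a few other proteins. Growing and secreting tissues such as corpus luteum, uterine glands and trophoblast depend on high ribosome output.

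Signals are the deposited MAS5 values, a linear measure of probe brightness. A trimmed mean without the brightest and dimmest 2% of probe sets was 500.1 on each array. A signal under 81.7, the 40th percentile of all signals, was set to that floor before log2 was taken. Between 57.4% and 61.6% of probe sets were above it on an array. The ovary label was borne out by its markers, since 7 of 10 luteal and steroid cell genes were higher in ovary in the limma test described with the tissue comparison (2.84% of all probe sets were). The myometrium label was not. None of 8 smooth muscle genes was called in either direction, and their median log2 difference, ovary minus myometrium, was 0.97. By contrast 7 of 9 epithelial genes were higher in myometrium (2.23% of all probe sets were). EPCAM was among them, with signals of 10256, 10845 and 9667 on the non-pregnant, early and late myometrium arrays. On the same arrays the summed signal of 10 luteal markers was 503.0, 10659.9 and 13499, and that of 6 trophoblast markers was 614, 34518 and 40941. The marker calls depended on leaving out dim probe sets, since with no such filter the fit called no probe set between the tissues. The median log2 differences, ovary minus myometrium, were 4.82 for the luteal and -5.23 for the epithelial genes. The word myometrium is kept below only as the label of the uterine arrays.

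Ribosomal protein genes were bright on every array. Of the 64 genes, 61 were above the floor on all 6 arrays (32 of the large subunit, 23 of the small subunit, the 5 paralogs and RPS19BP1), and 56 of these had a mean signal above 10000. Between 56 and 57 of the genes lay among the brightest 2% of probe sets on each array, a share that the trimmed mean leaves out. In this account values are given in the order non-pregnant, early pregnant, late pregnant. The median signal of the 61 genes was 29623.5, 24593 and 22999.6 in ovary and 26579.6, 20627 and 19797 in myometrium. All 64 together made up 8.88%, 7.71% and 7.22% of the summed signal in ovary and 8.26%, 6.49% and 6.15% in myometrium. The non-pregnant array was the brightest of its tissue and the late pregnant array the dimmest.

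The pattern held gene by gene in the signals as deposited. The non-pregnant array was the highest of its tissue for 61 of 61 genes in ovary (37.4% of the 11733 probe sets above the floor on all arrays), for 61 of 61 in myometrium (49.1%) and for all 61 in both (20.3%). Signals were lower at each step from non-pregnant to early to late for 51 genes in ovary and 48 in myometrium. Of all measured probe sets, 54.5% in ovary and 49.3% in myometrium were lower in late than in early pregnancy. With each array centred on its median, 36.1% of the 61 genes were lower in late than in early pregnant ovary. The non-pregnant ovary array was the brightest of all 6 for 52 genes and the non-pregnant myometrium array for 9. The late pregnant myometrium array was the dimmest for 47 genes and the early pregnant one for 12. These counts rest on single arrays, and in ovary they depended on the scaling, as set out below. The counts of steps, brightest arrays and dimmest arrays were not made over all probe sets, so they cannot be called particular to these genes.

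**Figure D1:**
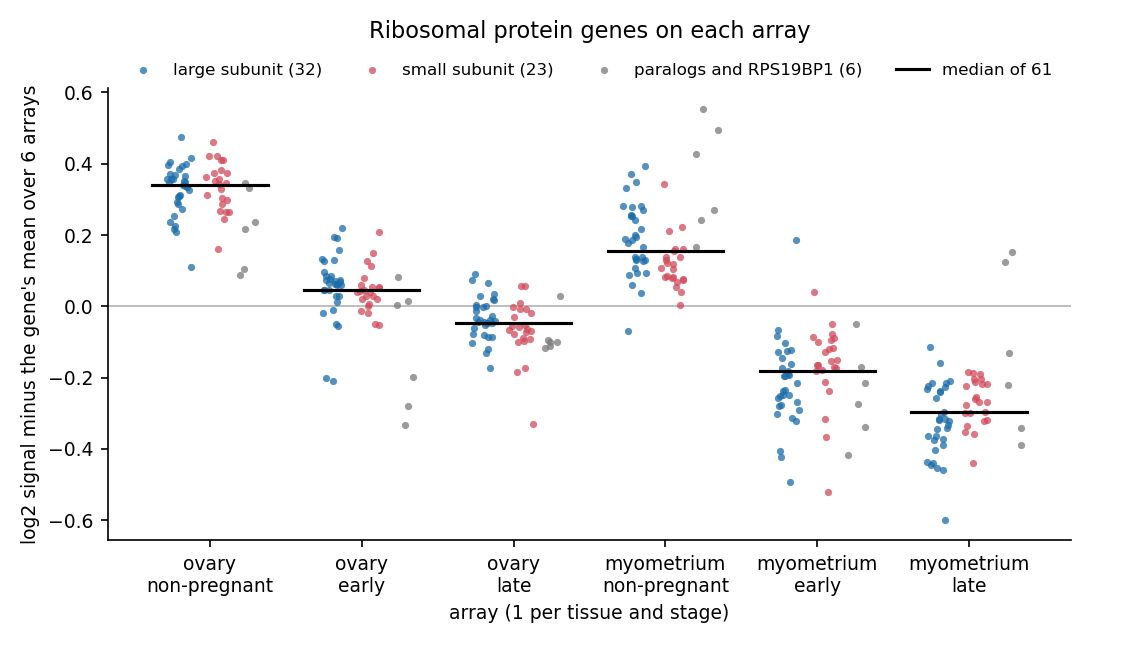
Log2 signal of each of 61 ribosomal protein genes minus that gene's mean over the 6 arrays, by array (horizontal axis, 1 array per tissue and stage); points are genes, coloured by subunit, and black lines are medians over the 61 genes. Points sit highest on both non-pregnant arrays and lowest on the late pregnant myometrium array, in signals as deposited. Quantile normalization, which makes the brightest signals equal on all arrays, brings the ovary medians of the 61 genes to -0.019 and -0.035 against the non-pregnant array. Centring each array on its median gives -0.26 and -0.23.

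In ovary, all 63 genes with a measured ratio were below their non-pregnant signal at both stages of pregnancy, by small amounts. The median log2 ratio was -0.28 in early pregnancy and -0.38 in late pregnancy. Over all measured probe sets it was -0.017 (51.5% of 15237 below 0) and -0.064 (56.4% of 15039). Only 1 gene was lower by 1.5-fold or more in early pregnancy (9.61% of all probe sets were), and that was the paralog RPS27L. In late pregnancy it was again 1 gene (12.6% of all probe sets), RPSA. None was higher by 1.5-fold at either stage, against 9.3% and 8.58% of all probe sets. The genes were close together: the SD of their ratios was 0.11 at both stages, against 0.50 and 0.56 over all probe sets.

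The ovary shift was shared with other bright probe sets. The 195 other probe sets with a mean signal above 10000 had medians of -0.25 in early and -0.30 in late pregnancy, and 83.6% and 84.6% of them were below 0. They include probe sets with several gene symbols or none, which may hold further ribosomal ones. The 131 of them with 1 gene symbol had medians of -0.25 and -0.27, with 83.2% and 80.2% below 0. After quantile normalization, which gives all arrays the same distribution of signals, the ribosomal medians were -0.027 and -0.035, with 55.6% and 58.7% of the genes below 0, and those of the other bright probe sets were -0.016 and -0.045. Ranks on an array are not changed by quantile normalization, so they restate this result and are no second check. Quantile normalization makes the brightest signals equal on all arrays, and these genes hold many of the top ranks. It can therefore remove a fall that the brightest probe sets share, and cannot tell such a fall from a difference in scaling. With each array centred on its median, the 61 genes had medians of -0.26 and -0.23, and the other bright probe sets -0.22 and -0.15. The median rank of the 61 genes, counted from the brightest probe set down, was 73, 75 and 73 on the 3 ovary arrays, and 33 of 61 genes ranked lower in early and 35 of 61 in late pregnancy than on the non-pregnant array. Spike-in hybridization controls (18 probe sets for transcripts added to every sample) stood 0.47 above their mean over the 6 arrays on the non-pregnant ovary array, on the log2 scale, and 0.062 above and 0.037 below it (-0.037) on the early and late ones. Their part in the result was not tested.

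Within ovary the lowest and highest ratios among the 61 genes above the floor on all arrays went to a few genes. RPSA, a small subunit protein that also serves as a laminin receptor at the cell surface, had signals of 33599, 24179.7 and 19968. It was the lowest of all in late pregnancy, at -0.75, and among the 4 lowest in early pregnancy, at -0.47. RPS27L, a p53-induced paralog of RPS27, read 7258, 4708 and 5832, with ratios of -0.62 and -0.32. Its early pregnant array was thus the dimmest of the 3. RPL7L1, a paralog of RPL7 that acts in ribosome assembly, read 4638, 3124 and 3685 and RPS21, a small subunit protein, 34464, 24899 and 24831. Both were among the 4 lowest in early pregnancy, at -0.57 and -0.47.

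In late pregnancy RPL21, RPS27A and RPS18 followed RPSA, with ratios of -0.58, -0.53 and -0.53. RPS27A is made as a fusion with ubiquitin, and RPS18 sits in the head of the small subunit. The ovary signals of RPS18 were 56436, 45459 and 39013. At the other end, of these 61 genes those nearest to 0 in early pregnancy were RPS9 at -0.057, RPL36AL at -0.09, RPL14 at -0.10 and RPL11 at -0.14. In late pregnancy they were RPL37 at -0.045, RPS24 at -0.10, RPS19BP1 at -0.19 and RPL36AL at -0.22. RPS24, whose loss of 1 copy can cause Diamond-Blackfan anaemia in people, read 27092, 24593 and 25211.

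Late and early pregnant ovary differed little. The median log2 ratio, late minus early, was -0.10 with 52 of 62 genes below 0 (54.5% of all probe sets were), against -0.04 over all probe sets. Its sign depended on the scaling: it was -0.0032 after quantile normalization and 0.021 once each array was centred on its median. No gene reached 1.5-fold in either direction (6.62% of all probe sets were that much higher and 10.6% lower). RPL14, RPS9, RPSA and RPL21 were the lowest, at -0.32, -0.30, -0.28 and -0.23, and RPS27L, RPL37, RPL7L1 and RPLP2 the highest, at 0.31, 0.26, 0.24 and 0.13.

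**Figure D2:**
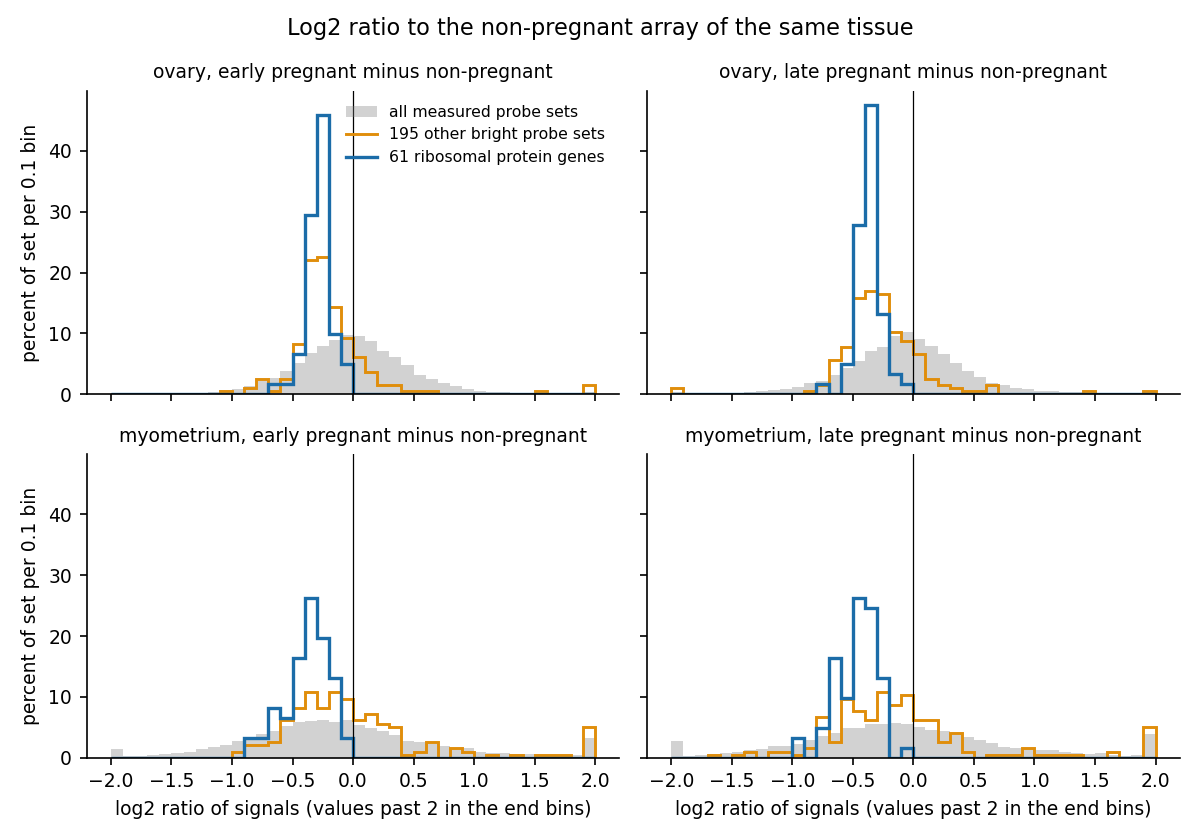
Share of each set (vertical axis, percent per bin of 0.1) by log2 ratio to the non-pregnant array of the same tissue, for 61 ribosomal protein genes (blue), 195 other probe sets with mean signal above 10000 (orange) and all measured probe sets (grey). In ovary (top) the ribosomal genes and the other bright probe sets peak close together, and quantile normalization takes the medians of the 61 genes to -0.019 and -0.035; in myometrium (bottom) their medians are -0.36 and -0.44 as deposited and -0.26 and -0.25 after it.

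In myometrium, all 63 measured genes were again below their non-pregnant signal, and the sizes were larger and more uneven. The median log2 ratio was -0.37 in early and -0.44 in late pregnancy, against -0.17 (60% of 15836 below 0) and -0.14 (57.6% of 16013) over all probe sets. The genes lower by 1.5-fold or more numbered 13 in early and 17 in late pregnancy. All probe sets gave 25.6% and 26.2%, so that the share of the 63 genes was near the background. None of the genes was higher by 1.5-fold, against 16.5% and 18.8% of all probe sets. With each array centred on its median the lower counts were 6 and 7, and after quantile normalization they were 13 and 11. The SD of the ratios was 0.23 and 0.21 over the genes and 0.99 and 1.10 over all probe sets.

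Here the other bright probe sets had medians nearer to 0, at -0.12 and -0.20, with 61.5% and 68.7% below 0. After quantile normalization the ribosomal medians were -0.26 at both stages, with 88.9% and 98.4% of genes below 0, and those of the other bright probe sets were -0.13 and -0.14. Once each array was centred on its median the ribosomal values were -0.26 and -0.33. In ranks, which restate the quantile-normalized comparison, the median of the 61 genes was 61 on the non-pregnant array and 97 on both pregnant arrays. By rank, 54 of 61 genes were lower in early and 60 of 61 in late pregnancy. The hybridization controls were at -0.12, -0.14 and -0.23 on the 3 arrays. With 1 array per stage the difference between the tissues was not tested.

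**Figure D3:**
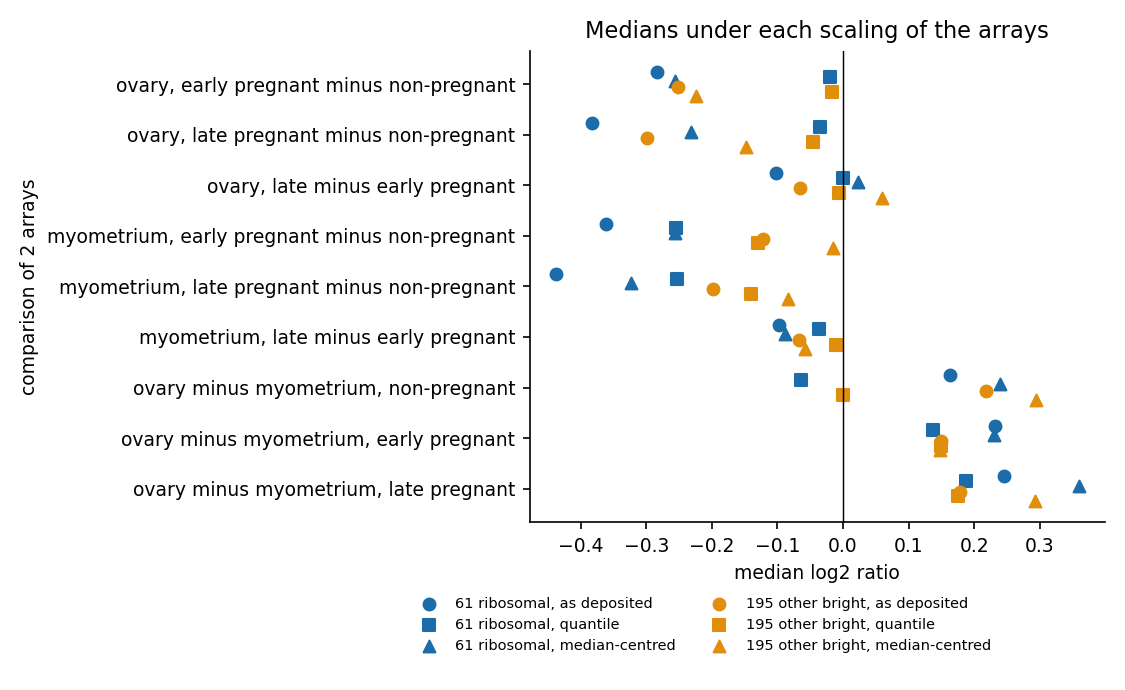
Median log2 ratio (horizontal axis) of 61 ribosomal protein genes (blue) and 195 other bright probe sets (orange) for each pair of arrays, with signals as deposited (circles), after quantile normalization (squares) and with each array centred on its median (triangles). The ribosomal medians for ovary move to near 0 after quantile normalization while those for myometrium against the non-pregnant array are at -0.26 and -0.25, and 2 comparisons change sign: late minus early pregnant ovary after centring, and ovary minus myometrium in non-pregnant sows after quantile normalization.

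Large subunit genes had lower ratios than small subunit genes in myometrium. The medians were -0.38 for 32 large and -0.26 for 23 small subunit genes in early pregnancy, and -0.46 and -0.35 in late pregnancy. After quantile normalization they were -0.28 and -0.15, then -0.33 and -0.16, so the order of the subunits was the same. In ovary the subunits were alike, at -0.28 and -0.30 in early and -0.38 and -0.39 in late pregnancy. The 5 paralogs and RPS19BP1 had a median of -0.62 in early and -0.54 in late pregnant myometrium. Of the 13 genes past 1.5-fold in early pregnancy, 7 were large subunit genes with a signal above the floor on all arrays, 1 was a small subunit gene and 3 were from the group of paralogs and RPS19BP1. The other 2 were RPL26 and RPL30, whose signals were near the floor.

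Among the 61 genes above the floor on all arrays, the lowest ratios in myometrium belonged to RPL26L1 and RPL13; RPL26 and RPL30, which have a pregnant value at the floor, are given with the dim genes. RPL26L1 is a near copy of RPL26, and its myometrium signals were 3595, 2023 and 1869.5, for ratios of -0.83 and -0.94. RPL13, a large subunit protein, read 18882, 10644 and 9898, for -0.83 and -0.93. Both genes had a single high array, the non-pregnant one, with the early and late arrays close together. On the ovary arrays RPL13 read 20837, 17137 and 15971, so its ratios there were -0.28 and -0.38.

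RPL10A, which forms the L1 stalk where spent transfer RNA leaves the ribosome, read 28594, 16762 and 17473 and was among the 4 lowest of the 61 genes in early pregnancy at -0.77. RPS19BP1 read 1166, 686 and 945, for -0.77 in early but -0.30 in late pregnancy. In late pregnancy RPL19 and RPL3 were next among the 61 genes after RPL26L1 and RPL13, at -0.74 and -0.73. RPL3, which reaches into the peptidyl transferase centre, read 20109, 12919 and 12095. RPS27, a zinc-finger protein of the small subunit, was the 1 gene of that subunit past 1.5-fold in early pregnancy, with 27606, 17282 and 21388 and ratios of -0.68 and -0.37.

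At the other end were RPS20, RPLP2, RPS21 and RPL11. RPS20, part of the small subunit head, read 30369, 29532 and 24694, for -0.04 in early and -0.30 in late pregnancy. RPS21 had ratios of -0.10 and -0.23, and RPL11 of -0.12 and -0.23. RPS27L was the gene nearest to 0 in late pregnancy, at -0.015, after -0.58 in early pregnancy. RPL5 was also among the 4 highest in late pregnancy, at -0.25.

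Between early and late pregnancy the myometrium signals again differed little. The median, late minus early, was -0.097 with 48 of 61 genes below 0 (49.3% of all probe sets were), against 0.0084 over all probe sets. No gene passed 1.5-fold (15.6% of all probe sets were that much higher and 14.3% lower). RPLP2 was the lowest at -0.58, followed by RPL23, RPL15 and RPL27 at -0.33, -0.33 and -0.32. The other bright probe set of RPL27 had the opposite sign there, at 0.19. RPS27L was the highest at 0.57, followed by RPS19BP1, RPS27 and RPS28 at 0.46, 0.31 and 0.18.

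**Figure D4:**
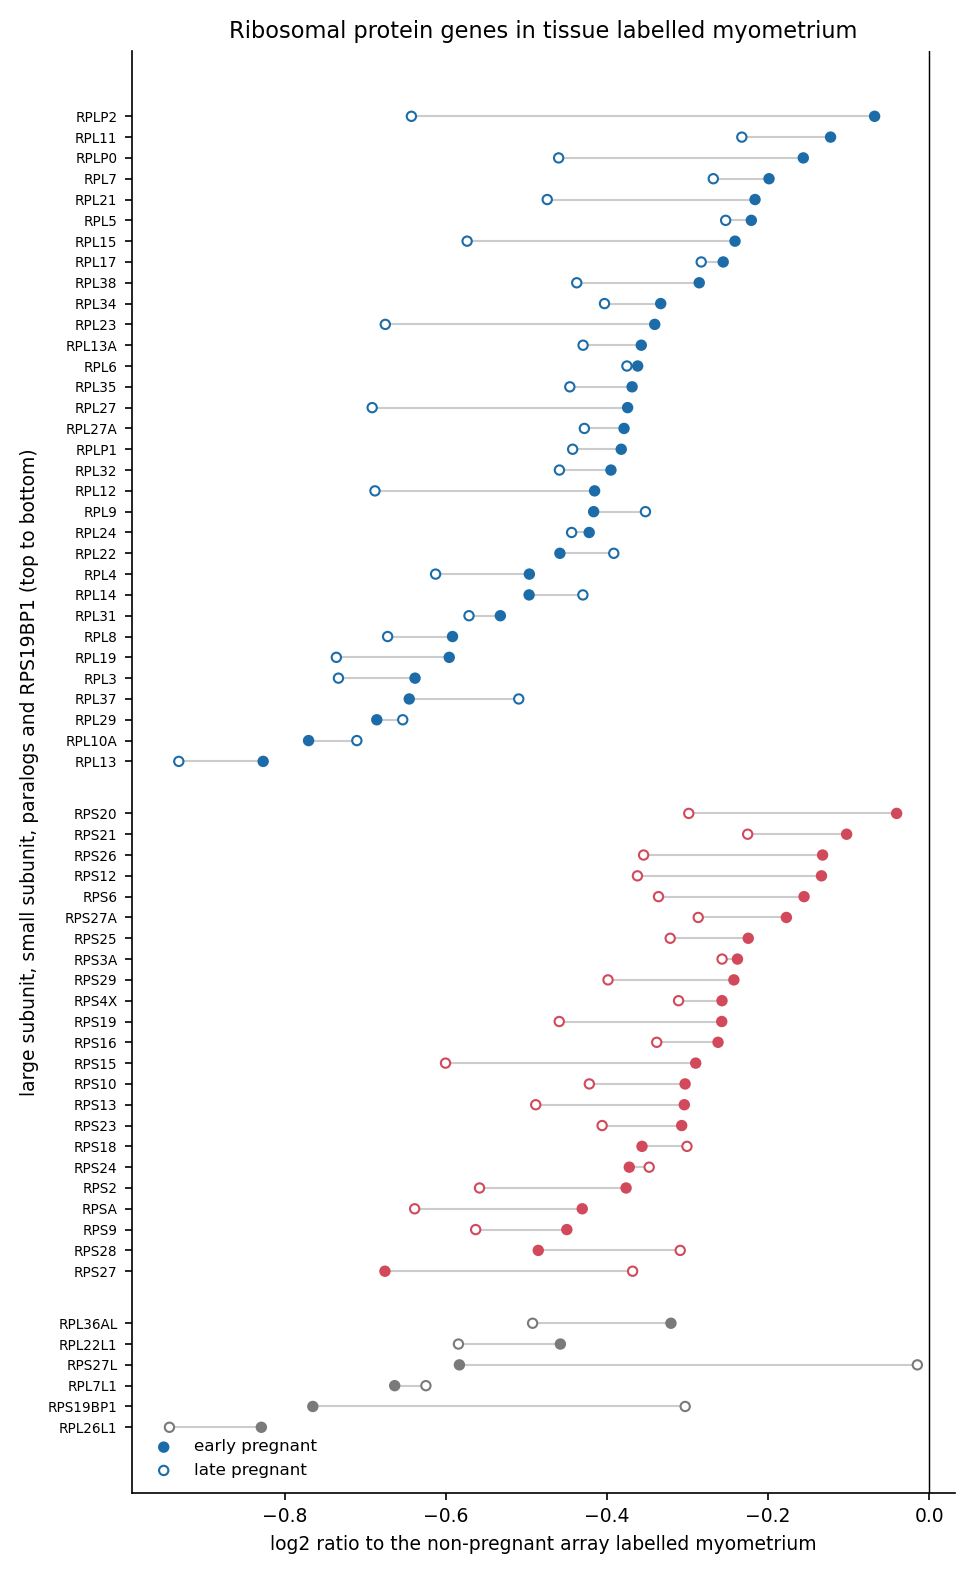
Log2 ratio to the non-pregnant array (horizontal axis) of 61 ribosomal protein genes on the arrays labelled myometrium, with filled points for early and open points for late pregnancy; genes are grouped by subunit and ordered by the early ratio. Every point is below 0 as deposited (88.5% in early and 98.4% in late pregnancy after quantile normalization), from RPL26L1 and RPL13 at the low end to RPS20 in early and RPS27L in late pregnancy.

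The order of the genes by ratio to the non-pregnant array was not shared between the tissues, and over all probe sets it was hardly shared either. Across the 61 genes, the ovary and myometrium ratios, which share no array, had a Pearson r of -0.015 and a Spearman rho of -0.11 in early pregnancy, and 0.00028 and -0.12 in late pregnancy. Over the 11733 probe sets above the floor on all arrays, Pearson r was also small, at 0.093 and 0.044. For late minus early pregnancy it was 0.33 (rho 0.20) over the 61 genes and -0.065 over those probe sets. Over the 56 of these genes with a mean signal above 10000 it was -0.093. These are correlations across genes, which are not independent replicates, and are given as a description. RPS21 shows the contrast, at -0.47 in early pregnant ovary and -0.10 in early pregnant myometrium, and RPL13 the reverse, at -0.28 and -0.83.

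The limma model with tissue and stage, fitted to the 15882 probe sets that exceeded the floor on 2 arrays or more, called none of the 63 ribosomal genes tested in the shared stage contrasts at an adjusted p of 0.05. It called no other probe set either. The median shared difference was -0.32 for early and -0.41 for late pregnancy against non-pregnant. At an unadjusted limma p under 0.05, 13 of 63 genes were lower in early pregnancy (2.38% of all probe sets) and 36 of 63 in late pregnancy (3.72%), and none was higher (1.94% and 2.35%). These unadjusted counts depended on the processing: they were 2 and 1 genes after quantile normalization, 1 and 1 with arrays centred on their medians and 0 and 1 with no trend, while a pseudocount of 16 gave 25 and 51. Leaving out any 1 array gave 0 to 13 genes in early and 2 to 20 in late pregnancy, with the fewest in early pregnancy without the early pregnant myometrium array and in late pregnancy without the late pregnant one. RPSA had the lowest late pregnancy p among them, with a shared log2 difference of -0.69 and an adjusted limma p of 0.711. Between late and early pregnancy the median was -0.098 and 0 genes passed even the unadjusted p (0.516% of all probe sets were higher and 1.13% lower). The non-pregnant arrays enter both stage contrasts, and the 6 arrays leave 2 residual degrees of freedom.

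Between the tissues most ribosomal protein genes were slightly brighter in ovary, and no gene passed the test. The median log2 difference over both tissues, ovary minus myometrium, was 0.21, with 57 of 63 genes above 0, against 0.013 over all probe sets and 0.19 over the 195 other bright ones. After quantile normalization it was 0.076. At an adjusted limma p of 0.05 the counts were 0 higher and 0 lower, where 2.84% and 2.23% of all probe sets were called. At an unadjusted p of 0.05 they were 5 higher (11.7% of all probe sets) and 0 lower (10.2%), and after quantile normalization 0 higher. Taken stage by stage, the median was 0.16 in non-pregnant (52 of 63 above 0, 46.5% of all probe sets), 0.23 in early pregnant (59 of 62, 54.4%) and 0.25 in late pregnant sows (58 of 61, 51.2%). In non-pregnant sows it turned to -0.067 after quantile normalization. Over the genes with a further probe set, the next brightest one gave a median tissue difference of -0.051, of the opposite sign. At 1.5-fold, RPL26 and RPL30 were lower in ovary in non-pregnant sows (19.2% of all probe sets were), RPL13 and RPS27 were higher in early pregnancy (24.1%) and RPL13 alone in late pregnancy (23.1%).

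RPL11 was the 1 gene whose ovary arrays all lay above its myometrium arrays, which held for 14.7% of all probe sets. It read 35718, 32463 and 27642 on the ovary arrays and 26568, 24408 and 22613 on the myometrium arrays. The lowest ovary value was above the highest myometrium value by a small margin, for a log2 difference of 0.38 ± 0.12 (SE, 3 arrays per tissue) and an adjusted limma p of 0.146. No gene had all myometrium arrays above all ovary arrays (11.9% of probe sets).

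RPL13 had the largest difference, 0.51 ± 0.17 (SE), with an adjusted limma p of 0.163. Its non-pregnant arrays were close, and the difference came at the pregnant stages, with log2 ratios of 0.14, 0.69 and 0.69 from non-pregnant to late pregnant. RPL13 passed the threshold, alone among the genes, in limma fits without the non-pregnant ovary array (adjusted p 0.0397), without the non-pregnant myometrium array (0.0419) and without both (0.0431). Those fits also called many other probe sets higher in ovary, at 979 of 15594, 1003 of 15470 and 1012 of 15086. The main fit called 451 of 15882. The fits that called RPL13 are not separate checks. With stage in the model, a lone non-pregnant array is taken up by its own stage term. All of them therefore draw the tissue difference from the same early and late pregnant arrays. RPS27 (0.39, adjusted limma p 0.187) and RPS18 (0.36, 0.162) came next, then RPL29 (0.33) and RPL19 (0.32), both large subunit proteins. RPS18 read 42170.3, 32937 and 34237 in myometrium against the ovary values above, and the groups overlapped. The 6 genes below 0 were RPL26 (-0.38), RPL30 (-0.27), RPS19BP1 (-0.14), RPL7L1 (-0.13), RPLP2 (-0.036) and RPL37 (-0.018).

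The proteins of the P stalk recruit elongation factors to the large subunit: RPLP0 is its base, and RPLP1 and RPLP2 are bound to it as dimers. RPLP0 read 37088, 30564 and 28404 on the ovary arrays and 31195, 27994 and 22678 on the myometrium arrays. RPLP1 read 17487, 15818 and 14654 on the ovary arrays and 17412, 13359 and 12811 on the myometrium arrays. RPLP2 read 15027, 11031 and 12051 on the ovary arrays and 15212, 14515 and 9742 on the myometrium arrays. RPLP0 and RPLP1 were highest on the non-pregnant array and lowest on the late array in both tissues, whereas RPLP2 was lowest in early pregnant ovary and in late pregnant myometrium. In early pregnancy its ovary signal was below its myometrium signal, at -0.40, the lowest value of any gene in that comparison. Ovary and myometrium overlapped for the 3 stalk genes, and their tissue differences were 0.23, 0.15 and -0.036 with adjusted limma p of 0.331, 0.585 and 0.934.

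RPSA had similar signals in both tissues at each stage. Its myometrium signals were 31817, 23605 and 20434, with ratios of -0.43 and -0.64 to the non-pregnant array. The ovary and myometrium groups overlapped throughout, and the tissue difference was 0.027 ± 0.12 (SE, adjusted limma p 0.924). It was the gene with the lowest shared late pregnancy difference among the small subunit genes.

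Several members have known roles outside the ribosome. RPL5 and RPL11 bind MDM2 and so raise p53 when ribosome assembly stalls. RPL5 read 39107, 30998 and 28694 on the ovary arrays and 33280.4, 28558 and 27935 on the myometrium arrays. Its groups overlapped, with a tissue difference of 0.13 (adjusted limma p 0.578). RPS6, the substrate of the S6 kinases, read 29624, 25036 and 22999.6 on the ovary arrays and 25269, 22691 and 20019 on the myometrium arrays, with the non-pregnant array highest and the late array lowest in both tissues. RPL22, which binds RNA outside the ribosome, read 34611, 27299 and 29713 on the ovary arrays and 31939, 23244 and 24347 on the myometrium arrays, and was higher on the late than on the early array in both tissues. RPS3 and RPL41 were not analysed here.

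The close paralogs were read beside their partners, with the caution that near-identical sequences can cross-hybridize, and levels were not compared between probe sets. RPL22L1 read 20322, 17099 and 15045 on the ovary arrays and 19091, 13899.7 and 12732 on the myometrium arrays. Unlike RPL22 it was lower on the late than on the early array in both tissues. RPL7 read 27280.3, 24082 and 20739.9 on the ovary arrays and 22564, 19660.2 and 18739 on the myometrium arrays, with myometrium ratios of -0.20 and -0.27, against -0.66 and -0.62 for RPL7L1, which read 5542, 3498 and 3594 there.

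RPS27L had myometrium signals of 6414, 4281 and 6350.0, where the early array alone was low. In ovary the early array was also the lowest, with the late array between it and the non-pregnant one. RPS27 had the same low early array in myometrium but not in ovary, where its signals were 32927, 26797 and 25778. RPL36AL read 12420.0, 11671 and 10663 on the ovary arrays and 13942, 11164 and 9911 on the myometrium arrays and had a tissue difference of 0.00092. Its partner RPL36A was not analysed here. RPS4X, the X-linked copy of its family, read 25286, 20870.5 and 21019 on the ovary arrays and 22687, 18983 and 18286 on the myometrium arrays. Its myometrium ratios were -0.26 and -0.31, close to the small subunit medians.

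A few members were too dim to follow. RPS15A was below the floor on all 6 arrays. RPL26 read 91.0, 83.8 and 62.9 on the ovary arrays and 206, 61.5 and 56.2 on the myometrium arrays, and RPL30 read 86.3, 57.8 and 36.5 on the ovary arrays and 151, 71.6 and 23.3 on the myometrium arrays. Both were brightest on the non-pregnant myometrium array and were at the floor on 3 and 4 arrays. Set to that floor, RPL26 had a ratio of -1.34 at both pregnant stages of myometrium, which makes it the 1 gene past 2-fold there (10.3% and 12.6% of all probe sets were) with only a bound on 1 side. RPL30 had -0.89 at both. RPL37 was measured but dim, at 733, 591 and 710.1 on the ovary arrays and 893, 571 and 627 on the myometrium arrays, on all 6 arrays. A dim probe set does not show that the transcript was scarce.

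The 61 genes varied less than most probe sets. The median SD of log2 signal over the 6 arrays was 0.25 for the 61 genes (range 0.16 to 0.44), 0.25 for large and 0.23 for small subunit genes, against 0.39 for 11733 probe sets above the floor on all arrays. The other bright probe sets also had 0.25. RPL13 had the largest SD and RPS24 the smallest.

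Other probe sets of the same genes gave a mixed check. Of 24 genes with more than 1 probe set, 20 had a next brightest one above the floor on all arrays. Its stage ratio to the non-pregnant array had the same sign as the brightest one in 13 of 20 genes in early and 13 in late pregnant ovary, and in 13 and 12 of 20 in myometrium. Only 3 of these second probe sets, for RPL27, RPL31 and RPS18, were themselves above 10000. All 3 had negative ratios to the non-pregnant array at both stages in both tissues. These differed from the first probe set by at most 0.28. For RPS18, for example, the late pregnant myometrium ratio was -0.30 by the first and -0.58 by the second. Between early and late pregnant myometrium the 3 agreed less, by up to 0.51, and the RPL27 probe sets had opposite signs. Of the 17 dimmer second probe sets, 10 kept the sign at each stage in ovary, and 10 and 9 in myometrium. That of RPLP0 gave 0.16 and 0.34 in early and late pregnant myometrium, and that of RPS27A 0.21 and 0.78 in ovary.

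Other genes of protein synthesis were also lower on the pregnant myometrium arrays. The ribosomal proteins FAU and RACK1, which the symbol rule leaves out, read 23819, 16928 and 16820.0 and 25339, 19964 and 17643. Of 17 TOP messenger RNAs on the array from outside the symbol rule, all 17 were below 0 at both stages, with medians of -0.65 and -0.58, and 9 and 8 were lower by 1.5-fold. That list includes FAU and RACK1. It also shares genes with the lists of elongation factors, initiation factors and biogenesis genes below, so the lists are not separate groups. Over all probe sets 60% and 57.6% were below 0, and 25.6% and 26.2% were lower by 1.5-fold. PABPC1, the poly(A)-binding protein, read 16803, 12724 and 11227. EEF1D, a subunit of the exchange factor for eEF1A, read 11495, 4945 and 5358, with ratios of -1.22 and -1.10. HNRNPA1, an RNA-binding splicing factor, read 6192, 2378 and 2528, for -1.38 and -1.29. In each case the non-pregnant array was the highest, and for EEF1D and HNRNPA1 the pregnant ones lay close together.

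Initiation factors were below 0 for 27 of 32 genes in early and 28 of 32 in late pregnant myometrium, with medians of -0.60 and -0.49, where 60% and 57.6% of all probe sets were below 0. Elongation factors were below 0 in 6 of 6 at both stages, with medians of -0.28 and -0.62. Ribosome biogenesis genes, which act in the nucleolus, had 45 of 49 and 47 of 50 below 0 and medians of -0.60 and -0.78. NIP7, a factor of large subunit assembly, read 1297, 604 and 454. Mitochondrial ribosomal proteins, which build a separate ribosome and lack the TOP tract, had 51 of 59 below 0 at both stages and medians of -0.42 and -0.56. These medians stayed negative after quantile normalization and after centring.

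In ovary the medians of these lists were closer to 0 than in myometrium, except that of the elongation factors in early pregnancy. The medians in early and late pregnancy were -0.19 and -0.34 for TOP messenger RNAs, -0.20 and -0.25 for initiation factors, -0.39 and -0.35 for elongation factors, -0.26 and -0.077 for biogenesis genes and -0.38 and -0.099 for mitochondrial ribosomal proteins. That of the TOP messenger RNAs in early pregnancy turned to 0.04 after quantile normalization, and those of biogenesis genes and mitochondrial ribosomal proteins in late pregnancy turned to 0.074 and 0.052 after centring. Housekeeping genes had medians of -0.31 and -0.22 in ovary and 0.069 and -0.16 in myometrium.

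None of the translation genes passed the limma test between tissues. Among the largest differences of their lists were those of EEF1A1 (-0.84, adjusted limma p 0.145), EIF2AK2, the interferon-induced kinase of eIF2 (0.81, 0.141), EIF3D (0.58), PABPC1 (0.47), the biogenesis factor NOB1 (1.05) and the mitochondrial protein MRPS36 (-1.39). FAU and RACK1 were at 0.18 and 0.22. Among genes that control ribosome production, MYC, which drives transcription of ribosomal genes, read 708, 832 and 585 on the ovary arrays and 1359.6, 746 and 383 on the myometrium arrays, highest on the non-pregnant and lowest on the late myometrium array. It was singled out after its values were seen. The median of that list was 0.02 and 0.057 in myometrium, with 3 of 7 and 3 of 6 genes below 0. Of 6 genes in the p53 response, GADD45A was higher in ovary (2.22, adjusted limma p 0.0119). CDKN1A, the p53-induced cell cycle inhibitor p21, read 204, 1159 and 862 in myometrium. Of 12 housekeeping genes, TFRC was higher in myometrium (-2.79, adjusted limma p 0.0425). In a fit with no filter on dim probe sets, neither GADD45A nor TFRC was called.

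**Figure D5:**
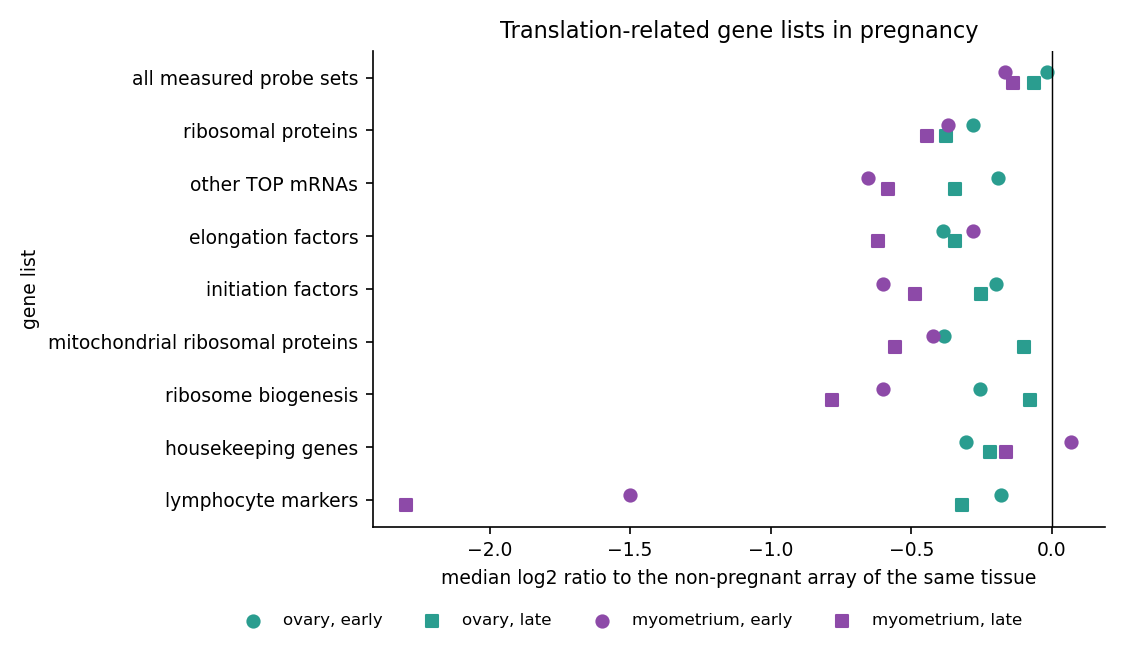
Median log2 ratio to the non-pregnant array of the same tissue (horizontal axis) for gene lists of protein synthesis and for comparison lists, in ovary (green) and myometrium (purple), early (circles) and late pregnancy (squares). In myometrium the TOP, initiation, biogenesis and mitochondrial lists lie at or below the ribosomal medians of -0.37 and -0.44; in ovary early TOP messenger RNAs turn to 0.04 after quantile normalization, and late biogenesis and mitochondrial lists to 0.074 and 0.052 after centring.

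Cell markers moved along the same arrays. Of 11 lymphocyte markers on the array, 8 exceeded the floor on some myometrium array, and 7 on a pregnant one. All 8 were below their non-pregnant value in early and in late pregnancy (60% and 57.6% of all probe sets were), with medians of -1.50 and -2.30. A marker above the floor on the non-pregnant array alone can only count as lower, so these counts partly follow from the floor. Their summed signal went from 3289 to 1203 and 499 in myometrium and from 1374 to 1035 and 726 in ovary. CD3D, part of the T cell receptor complex, read 498, 111 and 16.5 in myometrium, and CD4, CD79B and IL7R were under the floor on all arrays. Macrophage markers were below 0 in 5 of 7 and 4 of 7 in myometrium and in 7 of 7 at both stages in ovary (51.5% and 56.4% of all probe sets were in ovary). Their summed signal was 3849, 7721 and 7755 in myometrium, where it was higher on the pregnant arrays, and 6865, 3670.2 and 3491 in ovary, where it was lower. Of 8 smooth muscle markers, 2 and 1 were below 0 in early and late pregnant myometrium, with medians of 0.52 and 0.72, and their summed signal was 12748, 23322 and 24776. The trophoblast gene PLET1 read 49.1, 32821 and 31638 on the myometrium arrays and HAND1 50.4, 449 and 874. The part of these cell types in the ribosomal protein ratios was not tested. In bulk tissue, fewer cells of a type and less RNA per cell cannot be told apart.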

How the data were processed

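Total RNA from pig ovary and from uterine tissue labelled myometrium was hybridized to Affymetrix arrays, 1 array per tissue and stage. The authors deposited 1 table of MAS5 signal intensity values on a linear scale, 1 column per array, with MAS5 named in the submitters' processing notes. Other steps are not stated in the labels. Scanner files were not used, and precision is limited by there being 6 arrays. Of 24123 probe sets, 124 controls were left out of tests. In the platform annotation 10069 of the rest had 1 gene symbol, 198 several and 13732 none; 8 with several symbols that include a ribosomal one were left out. All 64 symbols matched the RefSeq gene table.

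Signals were floored at the 40th percentile (81.7) and log2-transformed. Limma (version 3.58.1, R 4.3.3; lmFit and eBayes with trend) was fitted with tissue and stage to the 15882 probe sets above the floor on 2 or more arrays, with Benjamini-Hochberg adjustment over all of them and a threshold of 0.05. The fit was tested on simulated data. With 1 array per tissue and stage, the residual spread holds any difference in stage effects between the tissues along with differences between arrays. P-values and standard errors are measured against that spread and not against replicates. Stage ratios within a tissue compare 1 array with 1 array and have no test; they are counted at 1.5-fold and 2-fold beside the same count over all probe sets above the floor on either array. Alternatives were floors at the 25th and 60th percentile, a pseudocount of 16, quantile normalization, centring on the array median, other probe sets of a gene, no filter, no trend, no stage term and leaving out arrays.

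Named genes were those with the 6 largest tissue differences in each direction and the 4 highest and lowest stage ratios, the stalk genes, RPSA, paralogs with their partners, dim genes, RPS19BP1, RPL22, RPS6, RPL5 and RPL11, and from each other list up to 4 with the largest tissue difference. The members, lists and tests were chosen with earlier results of these data known. Figures were drawn with matplotlib.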

Additional observations from a re-analysis of the deposited data

How the results depend on the processing

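No ribosomal protein gene passed the limma threshold in a shared stage contrast under any alternative run, and none between tissues except when arrays were left out: that count ranged from 0 to 1 over the fits without 1 array or 1 stage, the 1 being RPL13 whenever a non-pregnant array was missing. The fits that called RPL13 also called 979 to 1012 probe sets as higher in ovary, against 451 in the main fit. They draw the tissue difference from the same early and late pregnant arrays, so they are not separate checks. No paired analysis was possible because each group has 1 array and the labels carry no replicate numbers. After quantile normalization the ovary medians were -0.027 in early and -0.035 in late pregnancy (from -0.28 and -0.38), the tissue median was 0.076 (from 0.21) and the shared stage medians were -0.12 and -0.13 (from -0.32 and -0.41), while the myometrium medians were -0.26 at both stages. The non-pregnant tissue median turned from 0.16 to -0.067. With arrays centred on their medians the late ovary median was -0.22, and the median of all probe sets in that comparison shifted from -0.064 to 0.079, by more than 0.1. The next brightest probe set of the genes with several gave a median tissue difference of -0.051 over the stages and -0.29 in late pregnancy, both of the opposite sign to the brightest one; 17 of the 20 second probe sets above the floor have mean signals under 10000, and the cause was not tested. The floors, the pseudocount, averaging of probe sets, no filter and no trend, and (chosen after seeing the data) keeping only the 61 genes above the floor on all arrays, each left every median of single-array ratios within 1 SD of the genes' ratios, every limma median within the genes' median standard error, and every count of these genes at the threshold unchanged. Calls over all probe sets did change. With no filter the tissue contrast called 0 of 23999 higher and 0 lower in ovary, against 451 and 354 of 15882 in the main fit. With 1 array per tissue and stage, animal, array and stage cannot be told apart.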
